A study of Mus musculus with 29 samples.

Results

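The 10 heat shock chaperones described here are Hspa1a, Hspa1b, Hspa8, Hspa5, Hsp90aa1, Hsp90ab1, Hsph1, Hspe1, Hspb1 and Dnajb1. They were taken by symbol from both deposited count tables, and all 10 have a row among the 38924 genes of the LSK table and among the 18194 genes of the niche table. LSK cells (blood stem and progenitor cells sorted as lineage-negative, Sca-1-positive and Kit-positive) had regenerated after transplantation in mice with a wild-type niche (WT, 6 libraries) or with a niche haploinsufficient for Wnt5a (Wnt5a, 5 libraries). The genotype label is that of the niche, so it does not describe the LSK cells themselves. Sorted niche cells were profiled as EC (endothelial), OBC (osteoblastic) and MSC (mesenchymal) cells, with 3 WT and 3 Wnt5a libraries of each. All 29 libraries carry the strain label 129Ly5.1. The sources used here do not state the age or sex of the animals, the allele behind the haploinsufficiency, the treatment before transplantation whether libraries of 1 group come from separate animals or whether different populations come from the same ones, so p-values measure the spread between libraries. Smart-seq2 gave the LSK table, counted in reads, and UMI-seq the niche table, counted in unique molecular identifiers (UMIs), so levels are not compared between the tables.

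Chaperones bind unfolded or newly made proteins and help them fold. HSP70 proteins (Hspa1a, Hspa1b, Hspa8, Hspa5) work in cycles of ATP hydrolysis that J-domain proteins such as the product of Dnajb1 start and that nucleotide exchange factors such as the product of Hsph1 renew, and HSP90 proteins (Hsp90aa1, Hsp90ab1) then act on kinases, receptors and other late folding clients. The stress-inducible genes are activated by heat shock factor 1 (HSF1), which binds heat shock elements made of inverted GAA units, whereas Hspa5 belongs to the unfolded protein response of the endoplasmic reticulum. In blood stem cell biology, chaperones are studied as part of protein homeostasis, and inducible HSP70 is widely used as a readout of stress, including that of tissue dissociation.

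Promoters of several members hold adjacent inverted GAA units, the letters of which heat shock elements are made, and the following stretches show where they lie. Sequences are those of the RefSeq promoter table (GRCm38.p6), read 5′ to 3′ on the gene's strand, and 7 of the 10 genes had an entry. Positions are counted from the annotated start, where -1 is the last base before it. The first 3 stretches run from -150 to -1, and that of Hspe1 from -150 to -17. Capitals mark 2 adjacent inverted units (GAANNTTC or TTCNNGAA), or 3 of them or more in Hspe1.
Hspa1a: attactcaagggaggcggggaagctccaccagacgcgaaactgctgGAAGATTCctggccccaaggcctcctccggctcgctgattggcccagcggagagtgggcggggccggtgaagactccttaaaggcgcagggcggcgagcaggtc
Hspa1b: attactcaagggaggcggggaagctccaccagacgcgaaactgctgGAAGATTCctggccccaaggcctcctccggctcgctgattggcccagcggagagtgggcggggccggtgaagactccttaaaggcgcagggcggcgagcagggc
Hspb1: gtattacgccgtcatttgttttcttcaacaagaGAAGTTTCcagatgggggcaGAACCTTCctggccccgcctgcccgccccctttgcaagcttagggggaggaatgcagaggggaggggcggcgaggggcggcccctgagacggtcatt
Hspe1: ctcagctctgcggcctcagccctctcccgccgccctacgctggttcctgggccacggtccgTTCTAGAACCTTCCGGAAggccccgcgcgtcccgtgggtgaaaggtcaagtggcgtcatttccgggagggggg
These windows are chr17:34972157-34972306 (minus strand), chr17:34959239-34959388 (minus strand), chr5:135887769-135887918 (plus strand) and chr1:55087998-55088131 (plus strand). Hspa5 is shown by the 19 bases that match the endoplasmic reticulum stress element (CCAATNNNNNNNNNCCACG), at positions -65 to -47, chr2:34772025-34772043 (plus strand).
Hspa5: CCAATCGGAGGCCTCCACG
The 2-unit form, searched on both strands in the 250 bases before the start, was present in 5 of the 7 genes with an entry (Hspa1a, Hspa1b, Hspb1, Hsph1 and Hspe1) and in 12.84% of all 32851 promoters. The 3-unit form (GAANNTTCNNGAA or TTCNNGAANNTTC), which overlaps the 2-unit form, was found in Hspe1 and in 0.4657% of promoters. The stress element, also searched as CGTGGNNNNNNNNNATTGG, was found in Hspa5 and in 0.1126% of promoters. Hspa1a and Hspa1b differ at 3 of these 250 bases. A match is a description of the letters and shows no binding.

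Niche libraries were shallow, which sets what can be read from the less abundant members. They held 83254 to 117989 UMIs in EC WT, 18542 to 106757 in EC Wnt5a, 37352 to 50421 in MSC WT, 19999 to 48279 in MSC Wnt5a, 10635 to 29772 in OBC WT and 13726 to 17874 in OBC Wnt5a. Levels are given as CPM, a library's UMIs or reads scaled to a total of 1000000 over the tested genes with TMM factors, and 3 UMIs in 1 library correspond to 35.9 to 461 CPM. Endothelial markers were highest in EC and MSC (12 of 12 detected in both, summed levels 17868 to 24764 and 12399 to 21339.6 CPM) and lower in OBC (12 of 12, 4355 to 11011), so MSC libraries carry as much endothelial marker RNA in WT as EC libraries. Osteoblastic markers were highest in OBC (9 of 9 detected, 3544 to 28929.7) and low in EC (7 of 9, 306 to 530.1, with Sp7 and Runx2 at 0 in both EC groups) and MSC (7 of 9, 944.5 to 2168, with Sp7 and Dmp1 at 0). Mesenchymal markers summed to 6297 to 14664 in MSC (12 of 12), 5570.03 to 16117 in OBC (10 of 12, Pdgfra and Thy1 at 0) and 1719.9 to 2989 in EC (11 of 12, Thy1 at 0). EC WT replicate 14 had 24.3% of its UMIs in haemoglobin genes. In bulk libraries, fewer cells of a type and less RNA per cell cannot be told apart.

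The chaperones split into 2 sets across the niche. The inducible HSP70 genes Hspa1a and Hspa1b, the small heat shock gene Hspb1 and the constitutive HSP70 gene Hspa8 were higher in EC than in OBC, while both HSP90 genes and Hspa5 were lower in EC than in OBC. Hspa1a (chromosome 17, 34969190 to 34972156, minus strand of GRCm38), which encodes a cytosolic HSP70 made on stress, was counted with 18, 41 and 87 UMIs in the EC WT libraries and 8, 94 and 44 in EC Wnt5a. MSC had 4, 9 and 11 UMIs in WT and 1, 7 and 9 in Wnt5a, and OBC had 1, 0 and 0 in WT and 1, 1 and 2 in Wnt5a. The 6 EC libraries were all above the 6 OBC libraries, and the OBC libraries were each under 3 UMIs. The share of all genes that separate populations like this was not counted. A lack of overlap between populations, here and below, is therefore a description. On the CPM scale, EC stood at 304, 784 and 1040.4 in WT and 606, 1231 and 1174 in Wnt5a, a mean of 856 ± 360.1 (SD, n = 6), against 241 ± 119 in MSC and 87.8 ± 92.9 in OBC (SD, n = 6 each). EC exceeded OBC by a log2 difference 3.64, SE 0.58, edgeR adjusted p = 1.15e-06 (12.5-fold). Hspa1a reached the filter's level, which is scaled to library depth, in 5 EC, 0 OBC and 1 MSC libraries, so its calls as higher in EC are a description. The summed counts, 292 against 5 UMIs, give a ratio of 11.3 with an exact 95% Poisson interval of 4.78 to 35.01 that covers counting error only. Without EC WT replicate 14, the library rich in haemoglobin, the log2 difference was 3.67 (edgeR adjusted p = 5.01e-07), and without OBC WT replicate 7, which holds the only UMI of OBC WT, it was 5.18 (adjusted p = 1.96e-06). EC also exceeded MSC (3.45-fold, log2 1.79 (SE 0.35, edgeR adjusted p = 2.84e-04)), and OBC was below MSC (log2 -1.85 (SE 0.71, edgeR adjusted p = 0.0401)). The OBC to MSC call was lost in 11 of 27 alternative settings, among them DESeq2 (adjusted p = 0.0537) and the fits without MSC WT replicates 2 or 3, OBC WT replicates 8 or 9, OBC Wnt5a replicates 10 or 11, or MSC Wnt5a replicates 5 or 6 (adjusted p 0.0505 to 0.139). Without OBC WT replicate 7 that difference was -3.39.

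Hspa1b (chromosome 17, 34956436 to 34959238, minus strand), the neighbouring near-copy of Hspa1a, had 18, 24 and 29 UMIs in EC WT and 6, 23 and 25 in EC Wnt5a. MSC held 2, 2 and 4 UMIs in WT and 3, 0 and 8 in Wnt5a, and OBC 0, 0 and 1 and 0, 0 and 2. All EC libraries lay above all MSC and all OBC libraries once scaled to depth. Hspa1b reached the filter's depth-scaled level in 4 EC, 0 OBC and 0 MSC libraries, so its calls as higher in EC are likewise a description. The mean was 422 ± 139 CPM in EC, 127 ± 105 in MSC and 67.8 ± 109.7 in OBC (SD, n = 6 each). EC minus OBC was 3.03 (SE 0.77, edgeR adjusted p = 0.00101) on the log2 scale and rests on 125 against 3 UMIs, whose ratio of 8.05 has a counting interval of 2.69 to 39.6. EC minus MSC was 1.77 (SE 0.49, edgeR adjusted p = 0.0228), and OBC minus MSC was -1.26 (SE 0.95, edgeR adjusted p = 0.31) with a 95% interval of -3.17 to 0.64. Without OBC WT replicate 9 or OBC Wnt5a replicate 12, which hold all UMIs of their groups, the EC to OBC difference was 4.6 or 5.22. The EC call against MSC was lost in Wnt5a or WT libraries alone (adjusted p 0.257 and 0.202), without MSC WT replicate 1 (adjusted p = 0.062) and without MSC Wnt5a replicate 5 (adjusted p = 0.0945). Here and below, 1 genotype alone means a contrast of its groups within the fit of all niche libraries.

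Hspb1 (chromosome 5, 135887919 to 135889563, plus strand), whose product HSP25 is an ATP-independent chaperone that also binds actin, showed the same order. EC libraries were at 759.8, 707 and 1124 CPM in WT and 606, 1205 and 827 in Wnt5a. MSC libraries were at 582, 423 and 798 and 146, 474 and 699.7, and OBC libraries at 151, 69.5 and 0 and 194, 101 and 506. EC and OBC did not overlap, whereas EC and MSC did. Hspb1 was 5.9-fold higher in EC than in OBC (log2 difference 2.56, SE 0.46, edgeR adjusted p = 1.19e-05) and lower in OBC than in MSC (log2 difference -1.82, SE 0.50, edgeR adjusted p = 0.00399). In Wnt5a libraries alone the EC to OBC difference was 1.86 (adjusted p = 0.0184) against 3.26 in WT alone, and the OBC to MSC call was lost (-0.91, adjusted p = 0.442). Between EC and MSC the difference was 0.74 (SE 0.30, edgeR adjusted p = 0.185) with a 95% interval, not adjusted for the number of genes, of 0.13 to 1.34, and did not pass. Hspa8 (chromosome 9, 40800984 to 40810087, plus strand), the constitutive HSC70 of the cytosol that also takes part in clathrin uncoating, was at 1435, 1166 and 1196 CPM in EC WT, 833, 2579 and 1655 in EC Wnt5a, 582, 1884 and 829.7 in MSC WT and 1313, 949 and 979.5 in MSC Wnt5a. OBC stood at 602, 556 and 154 in WT and 388, 405 and 886 in Wnt5a. Hspa8 was 2.92-fold higher in EC than in OBC (log2 difference 1.55, SE 0.35, edgeR adjusted p = 2.91e-04). It was lower in OBC than in MSC (log2 difference -1.06, SE 0.36, edgeR adjusted p = 0.0203), a call that was lost in 7 of 28 alternative settings: without MSC WT replicate 2 (adjusted p = 0.113), OBC WT replicate 9 (0.0507) or OBC Wnt5a replicate 11 (0.0513), under the stricter filter (0.0648) and limma voom (0.061), and in WT (0.0791) or Wnt5a libraries alone (0.277). EC minus MSC was 0.48 (SE 0.28, edgeR adjusted p = 0.433), with a 95% interval of -0.08 to 1.04.

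The HSP90 genes ran the other way and were most abundant in OBC. Hsp90aa1 (chromosome 12, 110690605 to 110702728, minus strand), the stress-inducible HSP90 alpha, was at 2937, 2782 and 2768 CPM in OBC WT and 4461, 3949.7 and 3923 in OBC Wnt5a. EC was at 169, 478 and 873 in WT and 530.1, 1126 and 1762 in Wnt5a, and MSC at 368, 423 and 734 and 802, 2033 and 2064. The 6 OBC libraries were above every EC and every MSC library, again as a description. The level in EC was 0.231 of that in OBC (log2 difference -2.11, SE 0.31, edgeR adjusted p = 2.11e-07), and OBC was 3.67-fold above MSC (log2 difference 1.88, SE 0.31, edgeR adjusted p = 9.41e-06). EC and MSC were not told apart (log2 -0.24 (SE 0.31, edgeR adjusted p = 0.763), 95% interval -0.86 to 0.39). Hsp90ab1 (chromosome 17, 45567775 to 45573271, minus strand), the constitutive HSP90 beta, was at 4993 ± 918 CPM in OBC, 2795 ± 1410.1 in MSC and 2191 ± 1039.5 in EC (SD, n = 6 each). It fell short of the OBC level in EC (log2 difference -1.26, SE 0.28, edgeR adjusted p = 2.31e-04) and was higher in OBC than in MSC (log2 difference 0.95, SE 0.28, edgeR adjusted p = 0.00671), with overlapping libraries in both comparisons. Both calls of Hsp90ab1 were lost with no filter (log2 -0.62, adjusted p = 0.156, and 0.48, adjusted p = 0.512) and in Wnt5a libraries alone (-0.89, adjusted p = 0.0842, and 0.47, adjusted p = 0.512), and in Wnt5a alone the OBC to MSC call of Hsp90aa1 was lost as well (1.29, adjusted p = 0.057). Neutrophil markers (8 of 8 detected in every niche group) were also highest in OBC, at 4895 to 16204 summed CPM against 456 to 3797 in EC and 1538 to 6030.3 in MSC, and mitochondrial genes took 12% to 17.1% of UMIs in OBC WT and 3.57% to 8.47% in OBC Wnt5a against 0.95% to 4.43% in the other 12 libraries. The part of neutrophil markers and of the mitochondrial share in the EC to OBC differences was not tested.

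Hspa5 (chromosome 2, 34771970 to 34777547, plus strand), which encodes the endoplasmic reticulum chaperone BiP, was at 828, 1391 and 615 CPM in OBC WT and 582, 810.2 and 759 in OBC Wnt5a. EC libraries ranged from 401 to 614 and MSC libraries from 319 to 875. The highest library was OBC WT replicate 8, and the populations overlapped. EC was below OBC (log2 difference -0.76, SE 0.31, edgeR adjusted p = 0.0405), close to the threshold. That call was lost in 21 of 27 alternative settings, among them RLE scaling (adjusted p = 0.109), DESeq2 (adjusted p = 0.103) and 17 of 18 fits that left out 1 library, where the adjusted p ran from 0.0338 to 0.215. OBC minus MSC was 0.62 (SE 0.32, edgeR adjusted p = 0.13) and EC minus MSC -0.14 (SE 0.29, edgeR adjusted p = 0.854). Within WT libraries alone the EC to OBC difference of Hspa5 was -1.16 (edgeR adjusted p = 0.0249), and within Wnt5a libraries alone it was -0.35 (adjusted p = 0.592).

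**Figure D1:**
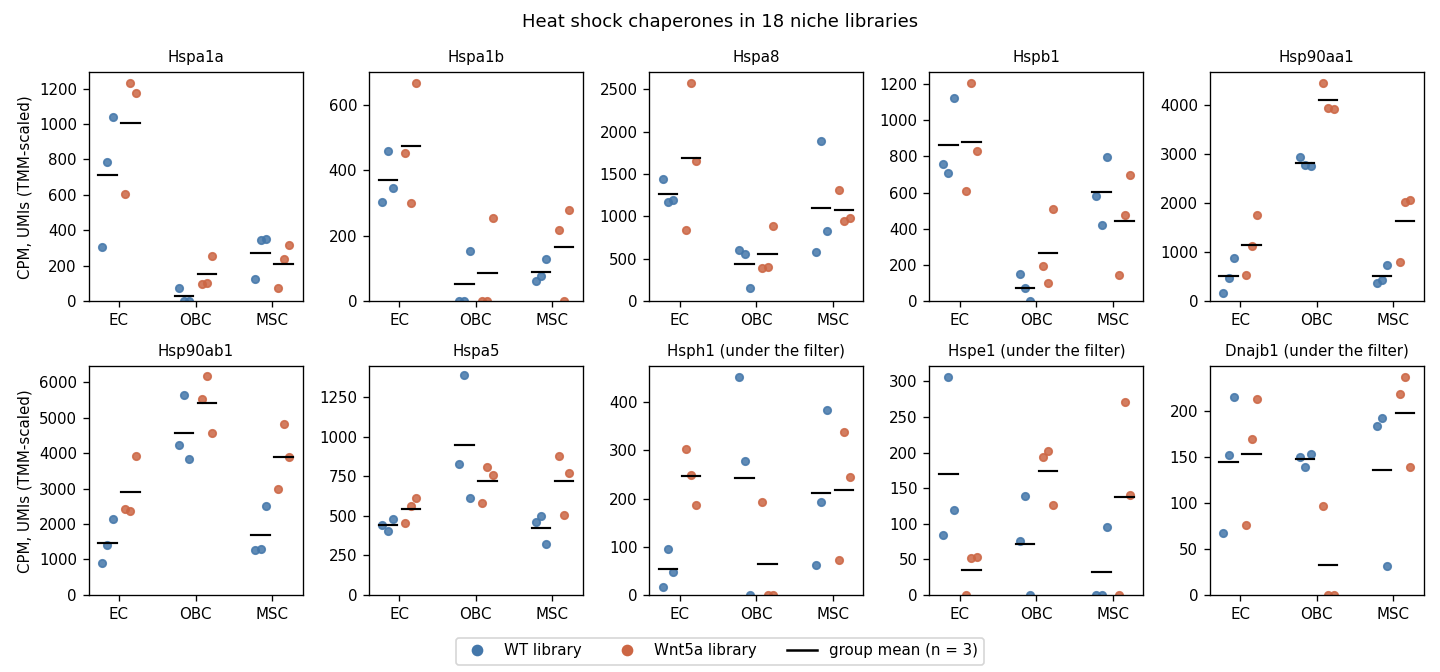
Level of each of the 10 chaperones in CPM (TMM-scaled, linear axes from 0) in the 18 niche libraries, by population and genotype. Points are libraries and black lines are group means (n = 3); in Hspa1a the 6 EC libraries lie above the 6 OBC libraries, and in Hsp90aa1 the 6 OBC libraries lie above the others.

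Of the 7 chaperones abundant enough to be tested in the niche, 4 were higher and 3 lower in EC than in OBC by edgeR's quasi-likelihood test, in a comparison that called 27.9% of 1099 tested genes higher and 20.2% lower. Hspa1a and Hspa1b passed the count filter through EC, where they are high (no OBC library and at most 1 MSC library reached the filter's level), so their calls as higher in EC are a description, and the other 5 tested members had 2 higher and 3 lower. With no filter, the median EC to OBC difference of all genes moved from 0.29 to 0.78 and each tested member moved up with it, and the calls over all genes went from 307 higher and 222 lower to 850 and 212. Between OBC and MSC, 2 were higher in OBC (Hsp90aa1 and Hsp90ab1) and 3 lower (Hspa1a, Hspa8 and Hspb1), where 13.4% of genes were called higher and 18.1% lower. EC and MSC differed in Hspa1a and Hspa1b, both higher in EC, with 0.91% of genes called higher and 2.73% lower. Against the mean of the other populations, EC had 4 higher and 2 lower members (24.4% and 15.7% of all genes), OBC 3 higher and 4 lower (19.3% and 26.8%), and MSC 0 (4.82% and 1.91%; 1 member at an unadjusted p under 0.05, and 0 by DESeq2 and by limma voom). In WT libraries alone the EC to OBC counts were 4 higher and 3 lower (20.1% and 15.9% of all genes), and in Wnt5a libraries alone 4 higher and 1 lower (12.9% and 13.2%), with Hsp90ab1 and Hspa5 not passing in Wnt5a. Hspa1a had 146 UMIs in EC WT against 1 in OBC WT, a ratio of 25.6 with a counting interval of 4.52 to 1016, and 146 in EC Wnt5a against 4 in OBC Wnt5a, a ratio of 8.07 with an interval of 3.09 to 30.01 (edgeR adjusted p = 1.92e-04 and 0.00235). Between EC and MSC the log2 difference of Hspa1a was 1.40 in WT (adjusted p = 0.176), which missed the threshold, and 2.18 in Wnt5a (adjusted p = 0.00735). Ordered by mean level, Hspa1a and Hspa1b ran EC, MSC, OBC, which is a description because both passed the filter through EC. MSC and OBC were not told apart for Hspa1b, and for Hspa1a that call was lost in 11 alternative settings. For neither gene did the call between EC and MSC pass in WT libraries alone. Hspa8 and Hspb1 also ran EC, MSC, OBC, with EC and MSC not told apart. Both HSP90 genes ran OBC, MSC, EC with MSC and EC not told apart.

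**Figure D2:**
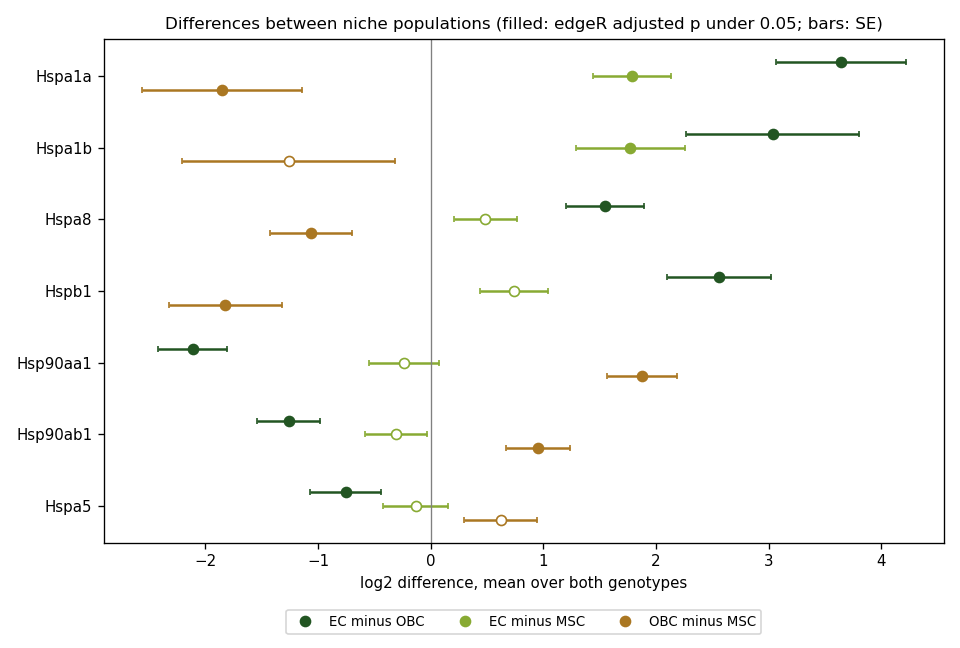
Log2 differences between niche populations (x axis, mean over both genotypes) for the 7 tested chaperones, with bars of 1 SE and filled points for an edgeR adjusted p under 0.05. EC minus OBC lies at 3.64 for Hspa1a and at -2.11 for Hsp90aa1, and the EC minus MSC points of the HSP90 genes lie near 0.

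The remaining 3 genes were under the count filter in the niche and were not tested there. Hsph1, which encodes the nucleotide exchange factor HSP105, had 40 UMIs over the 6 EC libraries, 37 over MSC and 12 over OBC, with 0 UMIs in 3 OBC libraries. Hspe1, the mitochondrial co-chaperonin HSP10, had 37 UMIs in EC, 15 in MSC and 8 in OBC. Dnajb1, a J-domain partner of HSP70, had 52 UMIs in EC, 26 in MSC and 6 in OBC. Their mean CPM lay between 84.4 and 216. With no filter, Dnajb1 had a difference of 1.69 between EC and OBC (SE 0.74, edgeR adjusted p = 0.171).

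Near-copies limit how firmly 3 of the members can be told from other loci. The coding sequences of Hspa1a and Hspa1b differ at 8 of 1926 aligned bases (99.58% identity), while the best local alignment of their sequences after the stop codon covers 92 bases. Summed into 1 row, the pair was higher in EC than in OBC (log2 3.44, SE 0.49, edgeR adjusted p = 1.14e-07) and than in MSC (1.77, SE 0.32, adjusted p = 7.30e-05). Each of the rows had passed the count filter through EC, so these calls are a description too. Hspb1 has a processed pseudogene, Hsp25-ps1 (chromosome 13, 45078498 to 45079127, minus strand), whose 630 bases match the Hspb1 transcript at 626. Its row held 29, 21 and 64 UMIs in EC WT and 7, 54 and 28 in EC Wnt5a, against 45, 37 and 94 and 8, 92 and 31 for Hspb1. The sources used here do not state how reads or UMIs that match both copies were counted, so the split between copies is uncertain. The 2 rows summed were higher in EC than in OBC by 3.01 (SE 0.43, edgeR adjusted p = 1.62e-07). Of the UMIs of Hsp25-ps1, 203 lay in EC and 2 in OBC libraries. The Hspe1 pseudogene rows were at 0 in all niche libraries. In LSK cells Hspe1-ps2 and Hspe1-ps3 were at 7.03 ± 0.817 and 8.37 ± 1.31 CPM in WT (SD, n = 6), beside 75.9 ± 9.72 for Hspe1.

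Other genes of protein folding were few among the 1099 tested in the niche. Of 22 further heat shock genes, 4 were tested and 3 were higher in EC than in the other populations, where 24.4% of all genes were called higher and 15.7% lower. Among them were the polyubiquitin gene Ubb (log2 1.13, SE 0.22, edgeR adjusted p = 1.08e-04) and Hspa12b, a divergent HSP70 of endothelium (1.19, SE 0.37, adjusted p = 0.00824). The median of the 4 was 1.11, beside 0.19 for all genes tested. Among 21 endoplasmic reticulum chaperone and unfolded protein response genes, 5 were tested and 2 were lower in EC. These were Hsp90b1, the HSP90 of that compartment (-1.06, SE 0.23, adjusted p = 2.92e-04), and the lectin chaperone Canx (-0.92, SE 0.30, adjusted p = 0.0122), the same direction as Hspa5. Of the chaperonin and prefoldin genes, 2 of 14 were tested and Cct8, a subunit of the TRiC ring, was lower in EC (-0.93, SE 0.31, adjusted p = 0.0147). In EC against the mean of the others, none passed of the 2 tested co-chaperones of HSP70 and HSP90 (21 listed) or of the 1 tested mitochondrial chaperone (9 listed). Against OBC alone, 1 of the 2 co-chaperones and the mitochondrial chaperone (-1.09) were called lower in EC, where 20.2% of all genes were. Against MSC alone, 0 of either list passed. Immediate early genes, which cells induce within minutes of stimulation and of tissue dissociation, were 16 of 19 tested. In EC 5 of the 16 were higher and 0 lower, not far from the 24.4% of all genes, with a median of 0.61 beside 0.19 for all genes. Klf4 (1.78, SE 0.33, adjusted p = 8.92e-05), Klf2 (0.92, SE 0.25, adjusted p = 0.00302) and Jun (0.70, SE 0.25, adjusted p = 0.0204) led them, and Klf2 and Klf4 are also known as flow-responsive genes of endothelium. Summed over the 19 genes, EC ranged from 8370.4 to 24947, OBC from 10292 to 15709 and MSC from 8613 to 14647 CPM. The part of the immediate early genes and of endothelial marker content in the EC level of the inducible chaperones was not tested.

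Outside the 10 members, the genes whose pattern over the 18 niche libraries was most like that of Hspa1a were Hsp25-ps1 (Pearson r = 0.884), Trp53i11 (0.864), Gimap6 (0.858), Klf4 (0.852) and Klf2 (0.825). Within groups, after the group means were taken out, these values were 0.647, 0.328, 0.748, 0.587 and 0.660. Among the members, Hspa1a went with Hspb1 (0.899, and 0.71 within groups), and Hsp90aa1 with Hsp90ab1 (0.95, and 0.821 within groups). Hspa1a and Hsp90aa1 had a negative value over all libraries (-0.418), where the populations set them apart, and a positive one within groups (0.765). All values are over log2 levels of libraries that fall into 3 populations and share depth and scaling, and they are descriptions. The likeness was not computed over the LSK libraries, where Hspa1a had at most 3 reads in a library.

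**Figure D3:**
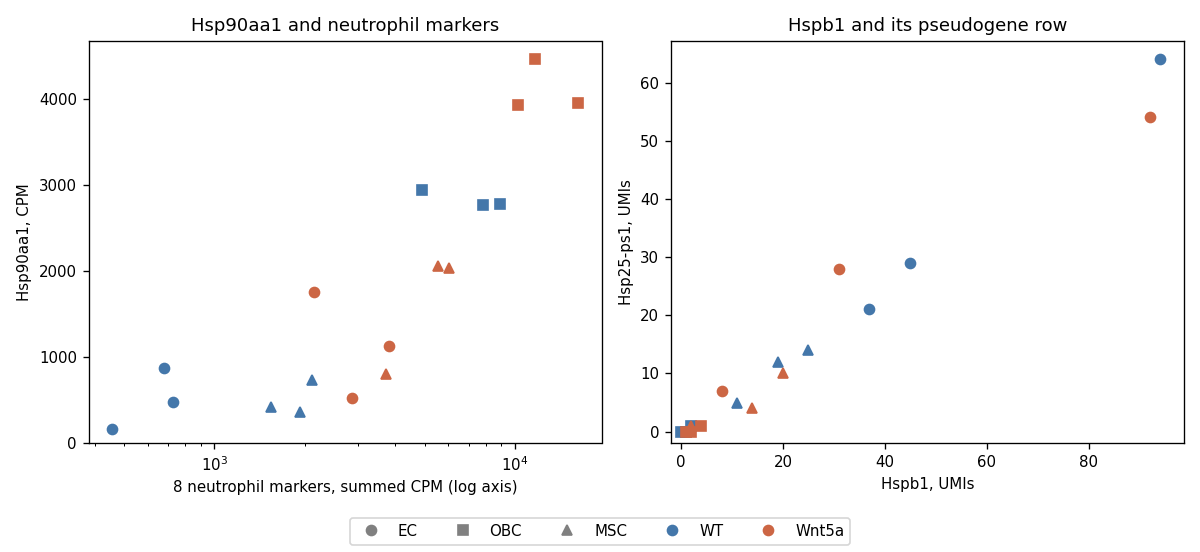
Left, Hsp90aa1 in CPM (y axis) against the summed level of 8 neutrophil markers in CPM (x axis, log scale). Right, UMIs of the Hsp25-ps1 row (y axis) against UMIs of Hspb1 (x axis). Each point is 1 of 18 niche libraries; Wnt5a libraries lie to the right of the WT libraries of their population on the left, and the highest counts are in EC libraries on the right.

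The comparison of Wnt5a with WT asks whether a niche haploinsufficient for Wnt5a differs in its chaperone RNA. Both HSP90 genes rose in the mean of the 3 populations, and 0 of the 7 tested members passed within any single population. Hsp90aa1 was at 368, 423 and 734 CPM in the MSC WT libraries and 802, 2033 and 2064 in MSC Wnt5a. OBC went from 2937, 2782 and 2768 to 4461, 3949.7 and 3923, and EC from 169, 478 and 873 to 530.1, 1126 and 1762. WT and Wnt5a libraries did not overlap in MSC and OBC and overlapped in EC. How many of all genes separate the genotypes in this way was not counted, so a lack of overlap is a description. The mean of the 3 differences was 1.15 (SE 0.25, edgeR adjusted p = 0.00423), a 2.22-fold change. Within MSC the log2 difference was 1.72 (SE 0.45, edgeR adjusted p = 0.0547), within EC 1.20 (SE 0.42, edgeR adjusted p = 0.293) and within OBC 0.54 (SE 0.43, edgeR adjusted p = 0.795). The mean difference passed in all 26 alternative settings, with adjusted p up to 0.029. The MSC difference passed without EC WT replicates 13, 14 or 15, MSC WT replicate 3 or MSC Wnt5a replicate 4 (adjusted p 0.0213 to 0.0493), and the EC difference passed without EC WT replicate 15 (adjusted p = 0.0134).

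Hsp90ab1 was at 1256, 1307 and 2521 CPM in MSC WT and 2991, 4811 and 3883 in MSC Wnt5a. In EC it was at 895, 1395 and 2141 in WT and 2423, 2369.7 and 3923 in Wnt5a, and in OBC at 4217, 5633 and 3844 and 5527, 6178 and 4556. Groups did not overlap in MSC and EC and overlapped in OBC, again as a description. The mean of the 3 differences was 0.81 (SE 0.23, edgeR adjusted p = 0.0348), a 1.75-fold change, with 1.21 (SE 0.39, edgeR adjusted p = 0.0931) in MSC, 0.97 (SE 0.39, edgeR adjusted p = 0.438) in EC and 0.24 (SE 0.40, edgeR adjusted p = 0.931) in OBC. This call was lost in 12 of 26 alternative settings. Among them were RLE scaling (adjusted p = 0.0508), no filter (0.278) and the fits without MSC WT replicates 1 or 2, OBC WT replicates 7 or 9, EC WT replicate 13, OBC Wnt5a replicates 10 or 11, MSC Wnt5a replicates 5 or 6, or EC Wnt5a replicate 18 (adjusted p 0.0583 to 0.124). Neutrophil markers were higher in Wnt5a in each population. Their summed level was 456 to 726 in EC WT and 2135 to 3797 in EC Wnt5a, 1538 to 2106 in MSC WT and 3721 to 6030.3 in MSC Wnt5a, and 4895 to 8901 in OBC WT and 10252 to 16204 in OBC Wnt5a. Their part in the HSP90 change was not tested. Endothelial markers, by contrast, were lower in MSC Wnt5a (12399 to 14728) than in MSC WT (20039 to 21339.6). Osteoblastic markers were lower in OBC Wnt5a (3544 to 8608, with 3 of 4 tested called lower) than in OBC WT (7842 to 28929.7, overlapping), and immediate early genes summed to 13469 to 15709 in OBC Wnt5a against 10292 to 12050 in OBC WT. The mitochondrial share was 1.8% to 2.28% in MSC WT and 2.66% to 4.43% in MSC Wnt5a. The part of these in the HSP90 change was not tested either.

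**Figure D4:**
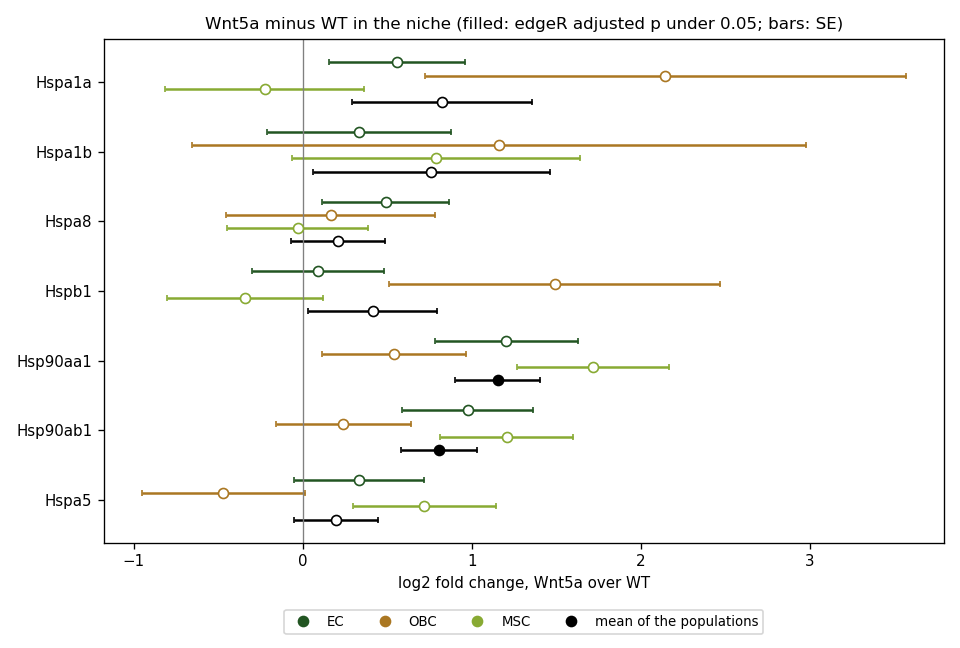
Log2 differences of Wnt5a minus WT (x axis) for the chaperones tested in the niche, within each population and for the mean of the 3. Bars are 1 SE and filled points mark an edgeR adjusted p under 0.05. The filled points are the niche means of Hsp90aa1 (1.15) and Hsp90ab1 (0.81).

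In the mean of the 3 populations, 2 of the 7 tested members passed, both higher, in a comparison that called 2.18% of 1099 genes higher and 0.91% lower. All 7 had positive differences, with a median of 0.76, beside 517 of 1099 genes and a median of -0.05. That median is the value of Hspa1b, which rests on 0 to 2 UMIs in each OBC library and turned to -0.64 without OBC Wnt5a replicate 12. Mean differences of Hspa1a and Hspb1 also draw on OBC libraries with 0 to 4 UMIs. Outside OBC, Hspa1a differed by 0.56 in EC and -0.23 in MSC, and Hspb1 by 0.09 and -0.34. Positive members were 7 of 7 in EC, 6 in OBC and 4 in MSC, beside 509, 544 and 523 of 1099 genes. Within EC, 0 passed by edgeR (2 at an unadjusted p under 0.05, and 0 by DESeq2 and limma voom), where 0.364% of genes were called. Within OBC, 0 passed (0 unadjusted, and 0 by DESeq2 and limma voom), where 1.27% were called. Within MSC, 0 passed (2 unadjusted, 1 by DESeq2 and 0 by limma voom), where 0.455% were called. The inducible genes did not pass. Hspa1a differed by 0.56 (SE 0.40, edgeR adjusted p = 0.726) in EC with a 95% interval of -0.26 to 1.37. Hspa1b differed there by 0.33 (SE 0.55, edgeR adjusted p = 0.898) and Hspb1 by 0.09 (SE 0.39, edgeR adjusted p = 0.975), with an interval of -0.69 to 0.87. In OBC these genes had 0 to 4 UMIs in a library, so no fold between genotypes is given there. Hspa8 differed by 0.49 (SE 0.37, edgeR adjusted p = 0.741) in EC and by -0.03 in MSC (adjusted p = 0.982). Hspa5 was at 459.6, 499.8 and 319 CPM in MSC WT and 875, 508 and 769.6 in MSC Wnt5a, without overlap, and did not pass (log2 difference 0.72, SE 0.42, edgeR adjusted p = 0.371). Of the genes under the filter, Hsph1 had 1, 5 and 4 UMIs in EC WT and 4, 19 and 7 in EC Wnt5a, which did not overlap in CPM, and Hspe1 had 5, 16 and 10 and 0, 4 and 2, which did not overlap in the opposite direction. With no filter, edgeR's differences were 2.03 (SE 0.67) for Hsph1 and -1.81 (SE 0.79) for Hspe1, both at an adjusted p of 0.894. In OBC, Hspa1a (higher in Wnt5a) and Dnajb1 (lower) did not overlap either, at 0 to 2 UMIs a library. The share of all genes that separate like this was not counted, so these separations are descriptions. Whether the Wnt5a difference itself differed between EC, OBC and MSC was tested as an interaction. Of the members 0 passed (0 at an unadjusted p under 0.05; edgeR adjusted p 0.714 for Hsp90aa1 and 0.724 for Hsp90ab1), where 0.546% of genes were called. Beyond the members, the immediate early gene Jund rose in the mean of the 3 populations (log2 0.96, SE 0.24, edgeR adjusted p = 0.0203), and the other pathway lists had 0 genes past the test in it.

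As a share of all UMIs in a library, the 10 chaperones together took 0.318% to 0.537% in EC WT and 0.448% to 0.727% in EC Wnt5a. MSC libraries gave them 0.238% to 0.426% in WT and 0.460% to 0.603% in Wnt5a, and OBC libraries 0.470% to 0.531% in WT and 0.648% to 0.677% in Wnt5a. The Wnt5a libraries were above all WT libraries in MSC and OBC, and the ranges overlapped in EC. The HSP90 genes weigh heavily in this sum. Over 3 libraries each, Hsp90aa1 and Hsp90ab1 held 97 and 162 UMIs in OBC WT and 116 and 154 in OBC Wnt5a. In MSC they held 46 and 154 in WT and 130 and 294 in Wnt5a. The share of the other members was not computed, so the sum does not show a rise of the chaperones as a set.

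In regenerating LSK cells the HSP90 genes, Hspa8, Hspa5, Hspe1 and Dnajb1 were all well covered, while the inducible HSP70 genes and Hspb1 were close to 0. Blood stem and progenitor markers were all detected in both groups (10 of 10, summed levels 2764 to 3979.8 CPM in WT and 2939 to 3963 in Wnt5a), beside 44.5 to 146 for mesenchymal markers (11 of 12 in Wnt5a, Clec3b at 0). B and plasma cell markers ran from 2159 to 11639.9 in WT and from 2816 to 45974 in Wnt5a, and their part in the levels was not tested. Depth ran from 1254553 to 5775459 reads over the WT libraries and from 1573560 to 3690114 over the Wnt5a ones. In CPM per kilobase of exon, the mean over the 11 libraries was 95.5 for Hsp90ab1 (SD 21.7) and 83.1 for Hsp90aa1 (SD 9.05). Hspe1 followed at 57.3 (SD 17.4), Hspa8 at 43.1 (SD 9.96), Hspa5 at 41.6 (SD 9.57), Dnajb1 at 32.3 (SD 5.79) and Hsph1 at 7.03 (SD 2.99). Of the neighbours in this order, Hsp90aa1 and Hspe1, and Dnajb1 and Hsph1, lay apart by more than the larger of their SDs, and the others did not. Hspb1 was at 0.84, Hspa1b at 0.38 and Hspa1a at 0.109 on the same scale. Hspa1a had 0, 0, 0, 0, 3 and 0 reads in the WT libraries and 1, 0, 0, 3 and 0 in the Wnt5a libraries, and Hspa1b had 1, 9, 5, 0, 3 and 4 and 7, 4, 0, 0 and 1. Hspb1 had 15 reads in WT replicate 3 and in Wnt5a replicate 1 and 0 to 4 reads in each of the others. These 3 genes, the ones that stood highest in EC relative to OBC in the niche, were under the count filter in LSK cells, and 3 reads in 1 library correspond to 0.48 to 2.40 CPM.

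Between LSK cells from WT and Wnt5a niches, 0 of the 7 tested chaperones passed edgeR's test (0 at an unadjusted p under 0.05, and 0 by DESeq2 and limma voom), in a comparison that called 0.0229% of 13098 genes. With Wnt5a replicates 4 and 5 left out, 425 genes were called higher and 457 lower, and 0 members passed. Hsp90aa1 ranged over 287, 311 and 396 CPM in WT (lowest, median and highest of 6) and 299.7, 307, 333, 306 and 365 in the 5 Wnt5a libraries. Its means were 331 ± 43.7 and 322 ± 27 CPM (SD, n = 6 and 5), and the difference was -0.04 (SE 0.15, edgeR adjusted p = 0.914) with a 95% interval of -0.35 to 0.27. The groups overlapped for all 10 members. Hspe1 had the largest difference, at 0.31 (SE 0.25, edgeR adjusted p = 0.517), with an interval of -0.21 to 0.83. Its lowest, median and highest WT values were 59.1, 78.2 and 85.5, and its Wnt5a values 80.7, 51.2, 122, 140.3 and 78.9, so that 2 of 5 Wnt5a libraries lay above all WT libraries. Hspa8 stood at 175 ± 45.7 in WT and 198 ± 40 in Wnt5a (difference 0.18, interval -0.25 to 0.61). Hspa5 stood at 182 ± 48.5 and 168 ± 31.7 (-0.12, interval -0.54 to 0.31), and Hsp90ab1 at 294 ± 59.6 and 277 ± 77.5 (-0.08, interval -0.50 to 0.34). Dnajb1 was at 108 ± 16.9 and 98 ± 20.9 (-0.14, interval -0.56 to 0.28). Hsph1 varied most among libraries, from 24 to 93.9 in WT and from 22.6 to 78.2 in Wnt5a (-0.18, interval -0.92 to 0.56). The median difference of the 7 was -0.08, beside 0.02 for all genes. A change in either direction of the size seen for Hsp90aa1 in the mean of the niche populations, 1.15, lies outside the intervals of all 7.

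**Figure D5:**
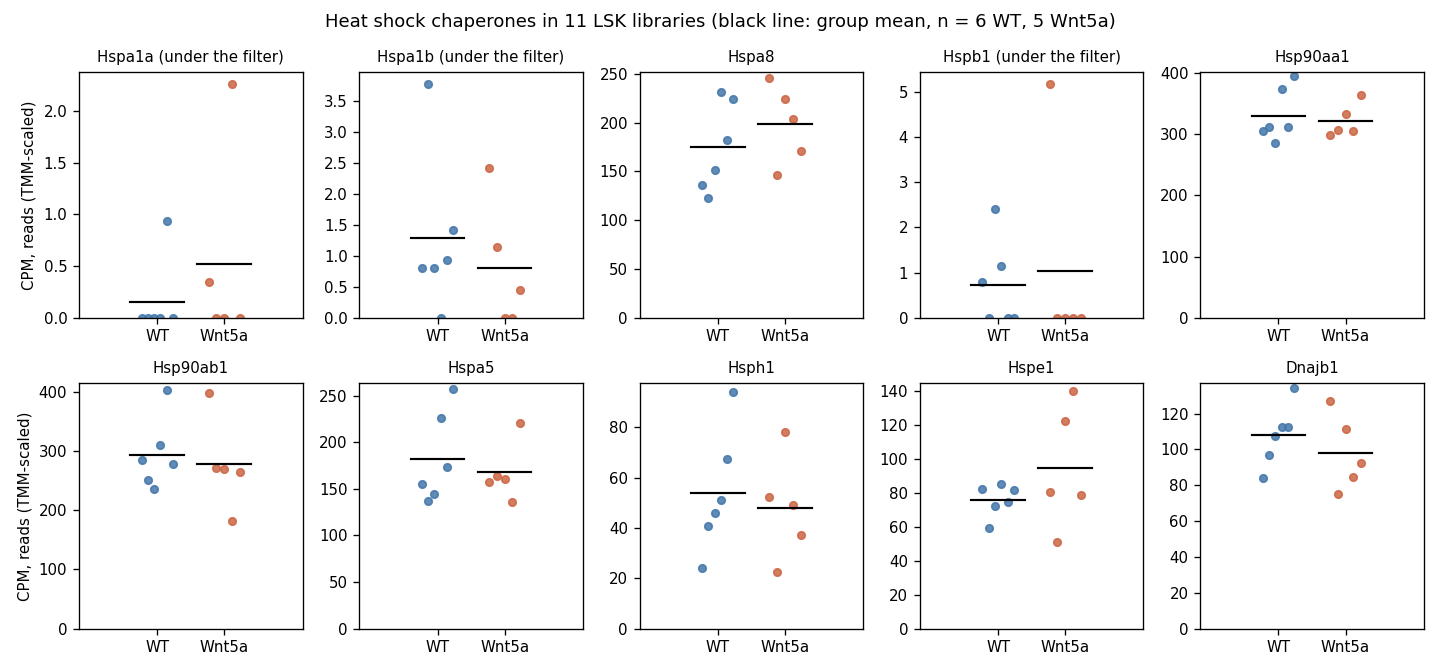
Level of each of the 10 chaperones in CPM (TMM-scaled, linear axes from 0, scaled per gene) in 6 WT and 5 Wnt5a LSK libraries. Points are libraries and black lines group means; the groups overlap in every panel, and Hspa1a, Hspa1b and Hspb1 stay under 6 CPM.

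Further folding genes were broadly covered in LSK cells, and 0 of them passed the test in any list. The further heat shock genes had 17 of 22 tested, 11 with positive differences and a median of 0.11. Co-chaperones had 20 of 21 tested with a median of 0.29, and 16 were positive, with St13, an HSP70 partner, at 0.50 (SE 0.15, edgeR adjusted p = 0.116). Endoplasmic reticulum genes had 21 of 21 tested with a median of 0.31 and 16 positive, and Calr, a calcium-binding lectin chaperone, was at 0.88 (SE 0.19, adjusted p = 0.0564). Mitochondrial chaperones had 9 of 9 tested with a median of -0.06, and Hspa9, the HSP70 of mitochondria, was at 0.48 (SE 0.16, adjusted p = 0.149). Chaperonin and prefoldin genes had 14 of 14 tested with a median of 0.11, and the prefoldin subunit Pfdn4 was at 1.26 (SE 0.32, adjusted p = 0.0902). Immediate early genes had 13 of 19 tested with a median of 0.02, and Myc was at 1.13 (SE 0.24, adjusted p = 0.0564). The median over all 13098 genes was 0.02.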

How the data were processed

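Bulk RNA was sequenced from 11 LSK and 18 niche libraries, each sample assigned to a group by its title and genotype label. Per the submitters' processing notes, STAR, featureCounts and the mm10 (GRCm38) genome were used, with versions, multi-mapping reads, UMI collapse, annotation release and strand not given in the sources used here. The deposited tables hold raw whole-number counts per Ensembl gene (reads for LSK, UMIs for the niche), and 28 spike-in rows, 0.0057% of niche counts, were kept out. Symbols were found for 37607 LSK and 17973 niche IDs. Coordinates are those of GENCODE on GRCm38.

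From these counts, edgeR 4.0.16 (R 4.3.3) was fitted to each table separately, with TMM factors, a robust quasi-likelihood fit and the filterByExpr filter. The filter was set to at least 10 counts and a total of 15, where the 10 counts apply at the median library depth and are scaled to the depth of each library. The LSK fit held 2 groups and the niche fit 6, so that niche groups of 3 share 1 estimate of the spread. The coefficient of variation that edgeR estimates beyond counting noise was 0.448 in LSK and 0.318 in niche libraries. Every adjusted p in the text is Benjamini-Hochberg adjusted over all genes tested in that comparison, and is edgeR's unless another tool is named. An SE is the size of the log2 difference over the root of its F value. CPM levels divide a count by the TMM-scaled total of the tested genes' counts. Intervals and floors of counts are at 95% confidence and 3 counts and cover counting error only, since reads are not independent molecules. The fit was tested on simulated data before use.

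Alternatives were RLE scaling, no filter, a filter at a mean of 20 counts, DESeq2 1.42.0, limma voom 3.58.1, near-copies summed, haemoglobin or other abundant genes removed, 1 genotype only, each population fitted alone, the LSK libraries with 4-digit numbers, and each library left out. For 1 genotype only, a contrast was taken within the fit of all niche libraries, so filter, scaling and spread used both genotypes. The sum of Hspb1 and Hsp25-ps1 was chosen after seeing the data. The members and gene lists were chosen with earlier results of these data known. Named genes are all members, up to 3 genes per list past the test in EC against the other populations, the list gene with the smallest p in LSK, list genes past a Wnt5a test, the 5 genes most like Hspa1a, and pseudogene copies. One gene that the rule names is not reported here. Wnt5a itself was not analysed here.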

Additional observations from a re-analysis of the deposited data

How the results depend on the processing

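No paired analysis was run, because no label ties a niche library to an animal and the numbers of the LSK libraries name single libraries. Whether niche populations share animals is not stated, and the fit treats all libraries as independent. In LSK cells the count of chaperones past the test stayed at 0 in all 19 alternatives. In the niche, the members higher in EC than in OBC were 4, and 2 under the stricter filter, where 4 members are tested. Those lower in EC than in OBC were 3, and 1 with no filter and in Wnt5a libraries only. Members lower in EC than in the other populations were 2, with 0 (no filter), 1 (WT only), 1 (Wnt5a only) and 1 to 2 when 1 library was left out, and members higher there were 4, with 2 under the stricter filter. Against the other populations, OBC had 3 higher members, with 1 (no filter and Wnt5a only), and 4 lower, with 2 (stricter filter) and 1 (Wnt5a only). MSC had 0 lower members, with 1 under the stricter filter and 0 to 1 with 1 library left out. Members higher in EC than in MSC were 2, with 0 (stricter filter, WT only), 1 (Hspa1a and Hspa1b summed, Wnt5a only) and 1 to 2 with 1 library left out. Between OBC and MSC, 2 were higher, with 1 (no filter) and 0 (Wnt5a only), and 3 lower, with 1 (stricter filter, limma voom), 0 (Wnt5a only) and 1 to 3 with 1 library left out.

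For Wnt5a minus WT, members higher in the mean of the niche were 2, with 1 under RLE scaling and with no filter and 1 to 2 with 1 library left out. Within MSC they were 0, with 2 (stricter filter, and each population fitted alone), 1 (DESeq2) and 0 to 1 with 1 library left out, and within EC 0 to 1 with 1 library left out. With each population fitted alone, Hsp90aa1 in MSC had an adjusted p of 0.00137 and Hsp90ab1 one of 0.00707. The causes of these moves were not tested. Fewer members were tested under the stricter filter, and a contrast in a single genotype compares fewer libraries.

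Signs turned for differences that did not pass. These were small except those of Hspa1b in MSC (0.79), in OBC and in the mean of the niche (0.76). In LSK cells Hsp90ab1 became 0.084 in the libraries with 4-digit numbers. With 1 library left out, Hsp90ab1 ran from -0.25 to 0.030, Hspa5 from -0.24 to 0.00023, Hsp90aa1 from -0.087 to 0.015 and Hsph1 from -0.43 to 0.045. Between EC and MSC, Hspa5 became 0.058 with no filter and 0.056 in WT only, and Hsp90aa1 0.021 in WT only. For Wnt5a minus WT, Hspb1 in EC became -0.0084 with no filter (-0.25 to 0.33 with 1 library left out). In MSC, Hspa1b became -0.018 and Hspa8 0.14 under limma voom and Hspa1a 0.10 with its copy summed, and with 1 library left out they ran from -0.25 to 1.48, from -0.36 to 0.54 and from -0.62 to 0.036. In OBC, Hspa8 ran from -0.32 to 0.39 and Hspa1b, at 0 to 2 UMIs a library, from -3.03 to 4.26, and in the mean of the niche Hspa1b ran from -0.64 to 1.78.

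Calls over all genes also moved: in LSK cells 1 higher and 2 lower became 389 and 267 by DESeq2, 207 and 136 with no filter, and 0 by limma voom. In the LSK libraries with 4-digit numbers, which leave out Wnt5a replicates 4 and 5, they became 425 and 457. Between EC and MSC 10 and 30 became 25 and 54 with no filter, between OBC and MSC 147 and 199 became 104 and 311, and for Wnt5a minus WT in MSC 3 and 2 became 13 and 23 by DESeq2. RLE scaling moved the median of all genes from 0.29 to 0.42 between EC and OBC and from -0.03 to -0.24 for Wnt5a minus WT in MSC, so changes there are relative to that shift. The shallow niche libraries limit Hsph1, Hspe1 and Dnajb1 everywhere and Hspa1a, Hspa1b and Hspb1 in OBC.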
